A study of Megathyrsus maximus with 33 samples.

Results

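Leaf RNA-seq libraries of Guinea grass (Panicum maximum), a tropical C4 forage grass, were examined for 100 transcripts that stood at a low level at the first sampling and at a higher level at the second. The members were chosen by 2 measured values: the mean of the deposited log2 values at time point A had to lie below 0, which is 1 read per 1000000 (1 CPM), and among the 16650 transcripts that met this the 100 with the largest mean of time point B minus time point A over the 16 plots were taken. The table holds 39208 transcripts. The rise over time is therefore how the members were selected and is given as a description with no test.

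The grass grew in a field under 4 treatments with 4 plots each. Control plots (C) had ambient air and temperature, eC plots received CO2 enrichment to 600 ppm from open-air rings, eT plots were warmed by 2 °C with infrared heaters above the canopy, and eCeT plots received both. Youngest fully expanded leaves were sampled when treatment had run for 30 days, called time point A, and for 50 days, called B, and 6 leaves of a plot were pooled into 1 library, so that a library averages over plants and the spread over plots is the only biological error. No plot was sampled before treatment began, and the calendar dates given for time point B differ between the sources, so the interval between the samplings is uncertain. Age, season and days of treatment changed together between the time points and cannot be told apart. The study also names low temperatures on the sampling day of B as a possible influence on transcript levels. That influence cannot be separated either.

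A grass leaf at these ages carries the photosynthetic and chaperone transcripts of mature tissue in large amounts, while regulators, defence genes and genes of other organs or of microbes on the leaf may be present in very small amounts. The transcripts were assembled without a genome. The assembler numbers each component, a group of contigs that share sequence (c80851), and each of its transcripts (c80851_g1), so 2 transcripts of 1 component may be alleles, homoeologs, copies or pieces of 1 gene and may share reads. In bulk leaf RNA, more cells of a type and more RNA per cell cannot be told apart.

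Of the 100 members, 1 is listed in the annotated tables of the study (c87803_g1), with a match too weak to give it a name, and 99 are not listed there. The members are therefore described by identifier and level. Sequences of the members were not analysed here. The labelled tissue was checked with 5 leaf transcripts. Ribulose-phosphate 3-epimerase of the Calvin cycle (c81866_g1) had a mean log2 value of 9.41 at A and 8.76 at B. The antenna protein LHCA6 (c82081_g1) stood at 4.14 and 4.91, the NDH subunit NDF1 (c84013_g1) at 3.65 and 4.79, and the electron carrier plastocyanin 1 (c66714_g1) at 2.14 and 1.20. CRR3 (c87432_g1), which is needed for the chloroplast NDH complex, was near 0 at both, with -1.13 and -0.03. All 5 were read at both time points, and none is a member.

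The depth set what could be seen. A library held 6148491 to 15638548 reads as recovered from the log2 values, and the median library held 11445787. A transcript with 0 reads had a log2 value between -5.16 and -3.15, depending on the library. The highest of these floors belonged to eT ring 3 at A, the shallowest library.

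The members rose from a median of -2.58 at A (means between -4.28 and -0.09) to a median of -0.38 at B (means between -2.28 and 2.39). Their mean rise lay between 1.98 and 3.41 on the log2 scale, with a median of 2.17. The median over all transcripts was 0.05 and over all candidates below the threshold 0.27. At B 39 members had a mean above 0, so most remained below 1 CPM after the rise. FPKM, which is scaled per length, had a median over members of 0.102 at A and 0.698 at B, each taken from the members' medians over the columns used.

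The rule cut through a dense series. The 5 last members, c96540_g3, c85221_g1, c89764_g3, c74403_g2 and c84801_g1, had mean rises of 1.99, 1.98, 1.98, 1.98 and 1.98, and the next 5 transcripts, c94430_g4, c76814_g3, c81885_g5, c78418_g5 and c96546_g3, which are not members, had 1.98, 1.98, 1.97, 1.97 and 1.96. Nothing in the values separates the 2 sides. When the rule was applied again with 1 plot left out, between 77 and 90 of the 100 members were picked again, and 46 were picked in all 16 omissions.

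**Figure D1:**
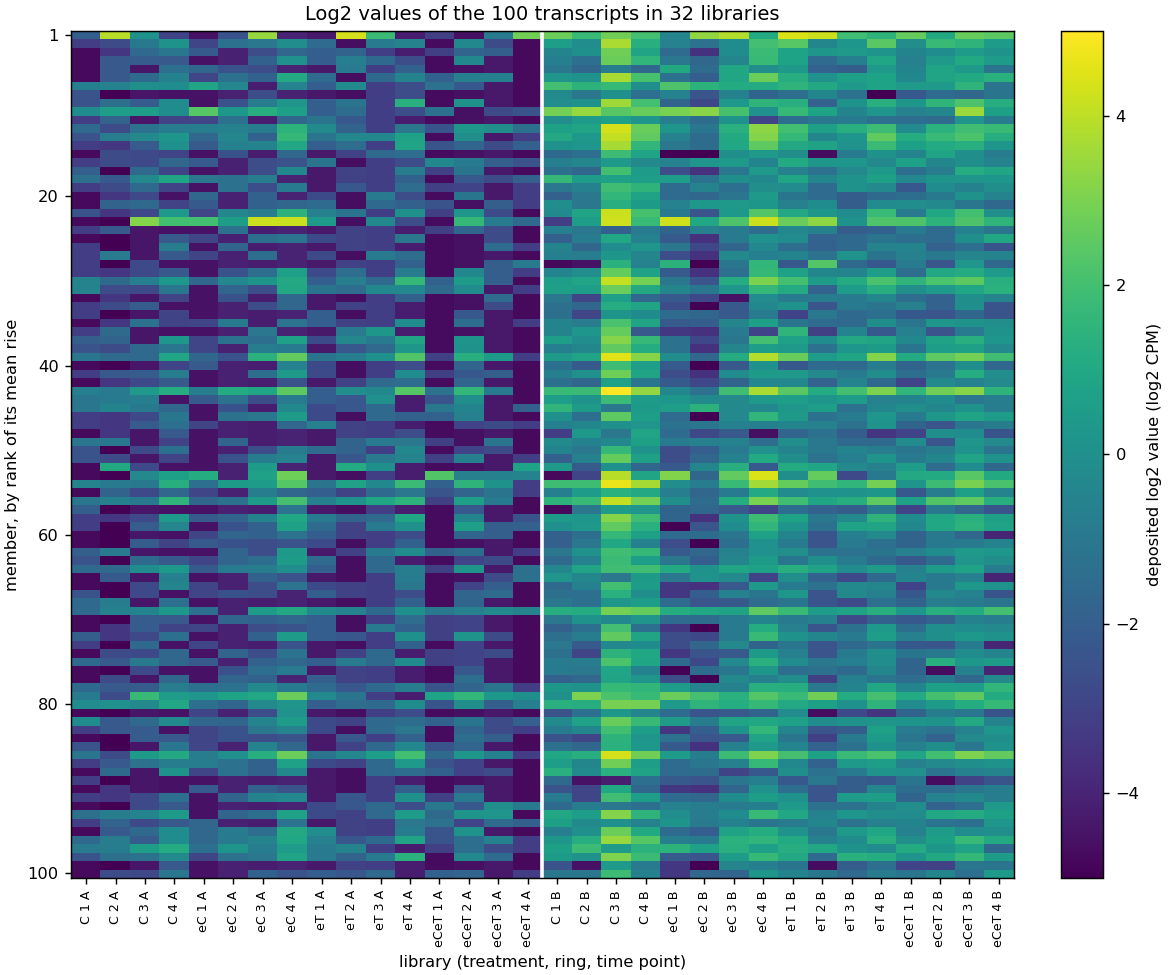
Each row is 1 of the 100 members, ordered by its mean rise, and each column 1 of the 32 libraries, with time point A left of the white line and B right of it. Colour is the deposited log2 value on a scale from -5 to 5. The right block is lighter in almost every row, the column of C ring 3 at B is the lightest, and a few rows, among them the first, are already light in some libraries at A.

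The name switched on was not borne out as an absence at A. Every member had at least 1 read at A, and 5 of the 39208 transcripts had none there. Reads summed over the 16 libraries of A lay between 1 and 726 with a median of 34.5, and at B between 46 and 1426 with a median of 185.5. Of the 1600 values of members at A 543 (33.9%) were 0 reads, against 31 of 1600 (1.94%) at B. Among all candidates 11.8% of values were 0 reads at A and 6.67% at B. Thus a typical member was read in most plots at A, at 1 to a few reads, and in nearly all plots at B.

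The members nearest to an absence were those with the fewest reads. The transcript c73846_g2 had 1 read at A, in C ring 1, and 46 at B. For c74403_g2 the sums were 3 and 59 reads. For c82581_g1 they were 4 and 81 reads. So few reads at A fix no fold. In 10 members the sum at A was at most 10 reads, and in 62 at most 50.

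The ratio of summed levels, B over A, had a median over members of 4.99. It is the selected change in another form and is given as a description. It was at least 8 in 12 members and below 2 in 3. Those 3 were c70296_g2, c65363_g1 and c65480_g1, which many reads at A show to be present already in some plots.

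**Figure D2:**
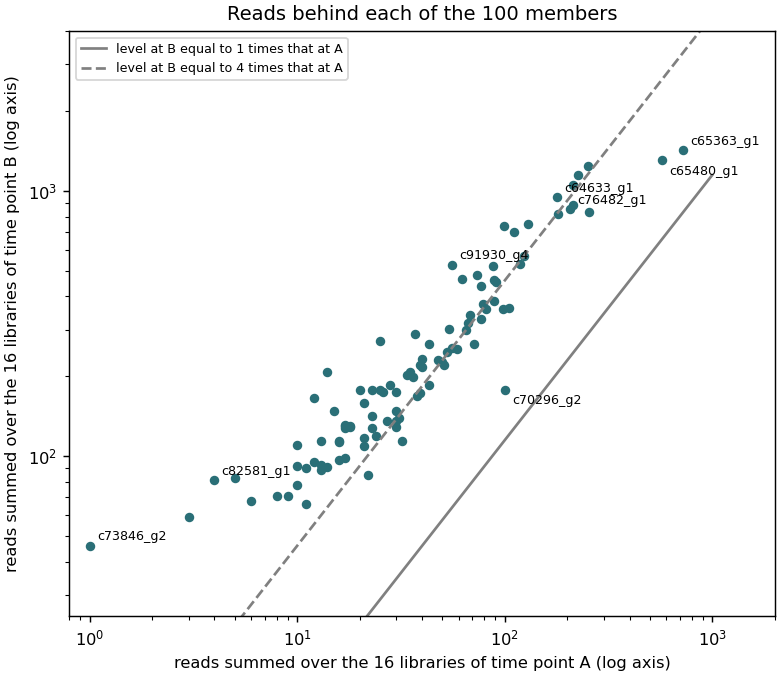
Reads of each of the 100 members summed over the 16 libraries of time point A and of time point B, both on log axes. The lines mark equal levels and a 4-fold higher level at B after scaling by library size. Most points lie near or above the dashed line, while c65363_g1, c65480_g1 and c70296_g2 lie between the lines, with 726, 573 and 101 reads at A.

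No member was apart between the time points, in the sense that all 16 values at B lay above all 16 at A. Over all transcripts this held for 0.0408%. A rise in all 16 plots was seen in 18 members, against 1.42% of all transcripts, a contrast that the rule itself used. A further 52 members rose in 15 plots, 18 in 14, 10 in 13 and 2 in 12.

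The largest mean rise, 3.41, was that of c65363_g1, and it is a switch in some plots and not in others. At A its reads in ring order were 3, 242, 11 and 1 in C, 0, 1, 100 and 0 in eC, 0, 248, 15 and 0 in eT, and 1, 0, 5 and 99 in eCeT. Thus 4 libraries, 1 of each treatment, held 94.9% of its 726 reads, and the other 12 held at most 15 reads each. The 15 reads were in eT ring 3, the shallowest library. After scaling, the rise there was only 0.12, so this plot was not low at A either. At B every library had reads, between 11 and 256 with a median of 56. Its rise over plots ranged from -2.17 to 8.77 (SD 3.02, n = 16), the widest among the members, and it was higher at B in 13 of 16 plots. The ratio of summed levels was 1.71, since those 4 libraries held most of the reads at A.

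The transcript c70296_g2 repeated this library pattern. At A it had 33 reads in C ring 2, 13 in eC ring 3, 27 in eT ring 2 and 23 in eCeT ring 4, and of the other 12 libraries C ring 3 had 1 read, eT ring 3 had 4 and 10 had 0. In the shallow eT ring 3 its rise after scaling was -0.31. At B all libraries had reads, with a median of 9.5. Over the 32 libraries its log2 values had a correlation of 0.94 with those of c65363_g1, from another component. Next came c6470_g1, with 0.69. These are descriptions over libraries that share depth and scaling. The 2 transcripts are thus alike in where they were high at A.

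Another pattern of plots was seen for c65480_g1, the member with the highest FPKM at B, a median of 123 against 16.9 at A. Its reads at A were 0, 0, 92 and 44 in C, 45, 12, 168 and 149 in eC, 13, 0, 3 and 1 in eT, and 0, 37, 5 and 4 in eCeT. At B they were 1, 17, 183 and 39 in C, 299, 34, 53 and 222 in eC, 78, 125, 11 and 79 in eT, and 54, 35, 52 and 22 in eCeT. The groups overlap at both time points, and the SD of its rise was 2.78. Among members its values were most like those of c95105_g3 (r = 0.75) and c76482_g1 (r = 0.71) over the 32 libraries. The other members of high FPKM at B were c91930_g4 (median 7.99), c71620_g1 (6.69), c93269_g4 (6.06), c65363_g1 (6.03) and c73745_g1 (5.88). No other member came near the level of c65480_g1 per length.

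Next in mean rise was c91930_g4, with 2.88 (SD 1.58, n = 16), and it was higher at B in all 16 plots. Its reads at A were 0 to 12 with a median of 2.5, and at B 7 to 125 with a median of 16. Its component also holds c91930_g1, an abundant transcript that fell by 1.27 on average, from 39628 to 21754 summed reads. The member therefore rose while a related sequence of its component was lower at B.

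The component c80851 gave 2 members. Its transcript c80851_g1 rose by 2.85 (SD 1.31), from a median of 1.5 reads at A to 12 at B, in all 16 plots. The transcript c80851_g7 rose by 2.49 (SD 1.41), from a median of 5 reads to 27.5, in 15 plots. In both the highest library at B was C ring 3, with 66 and 193 reads. The transcript c80851_g3 of the same component, was lower at B by 0.80 on average.

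The component c84567 also gave 2. For c84567_g2 the rise was 2.77 (SD 1.83), from a median of 1.5 reads to 9.5. For c84567_g1 it was 2.47 (SD 2.08), from a median of 5 reads to 27. The pairs of c77556 (c77556_g3 with 2.23 and c77556_g1 with 2.18) and c87973 (c87973_g2 with 2.17 and c87973_g1 with 1.99) make up the other shared components. Thus the 100 members stand for 96 components, and members of 1 component may share reads.

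The remaining members of the first 12 had mean rises between 2.49 and 2.74. They were c78563_g1 (2.74), c95320_g1 (2.66), c32489_g1 (2.64), c82581_g1 (2.62), c45791_g1 (2.56), c64633_g1 (2.50) and c68220_g2 (2.49). Their medians at A lay between 0 and 7.5 reads. The libraries that were high at B were not the same for all of them: c78563_g1 had 32 reads in eC ring 1 and 22 in eC ring 3 against 5 in C ring 3, while c95320_g1 had 120 reads in C ring 3 and 6 in eC ring 1.

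The 3 steadiest rises, those with the smallest SD over plots, lay on both sides of the members' median rise of 2.17. The smallest SD was that of c71129_g1, with a mean rise of 2.03 and an SD of 0.81, from 0.58 to 3.27 over plots. Its reads went from a median of 7.5 to 26. The transcript c73745_g1 rose by 2.18 (SD 1.08) and c64928_g1 by 2.33 (SD 1.09). All 3 were higher at B in all 16 plots, yet the libraries of the 2 time points overlapped for each of them. Of these c71129_g1 had at least 1 read in every library at A.

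A rise of the same measure was also seen in plots that had not chosen the transcripts. The labels give each plot a ring number from 1 to 4, and nothing says what plots of different treatments with the same number share. The rule was applied to the plots with 3 of the 4 ring numbers, and the 100 transcripts so picked were read in the ring left out. With ring 1, 2, 3 and 4 left out, their median rise there was 1.86, 1.00, 2.00 and 1.87, against 0.30, 0.19, 0.28 and 0.24 for all candidates. Of the 100 picked, 97, 94, 98 and 96 were higher at B in the ring left out, against 64.5%, 59.7%, 61.6% and 60.8% of all candidates. Ring 2 gave the smallest rise, and in 1 of its plots the median was -0.36. The picked sets shared between 67 and 72 transcripts with the members. The plots left out were sampled at the same time points as the others, and the candidates were not chosen on a rise. These values are therefore a description with no test.

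Transcripts of the same components that are not members gave a related view. There were 100 of them in the table, and 85 were higher at B, against 53.9% of all transcripts. Their median rise was 1.06. For the 77 that were also below 0 at A it was 1.14, and for the 23 at or above 0 it was 0.18. They share sequence and perhaps reads with members, so this is no independent count. The largest rises were those of c76309_g8 (1.95) and c64874_g3 (1.94).

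The plots differed widely in how far the members rose. The median rise over the 100 members was 2.51, 2.25, 4.27 and 2.22 in the C plots of rings 1 to 4, 1.80, 0.49, 1.31 and 1.41 in eC, 2.94, 1.81, 1.58 and 1.49 in eT, and 2.46, 1.48, 3.24 and 3.58 in eCeT. The means over plots were 2.81 ± 0.98 (SD, n = 4) in C, 1.25 ± 0.55 in eC, 1.95 ± 0.67 in eT and 2.69 ± 0.93 in eCeT. All plots were above 0, and 3 of the 4 eC plots lay below every plot of C, eT and eCeT, while eC ring 1 did not. The order was another one for summed reads. The log2 ratio of the members' share of reads at B to that at A was lowest in C ring 2 (1.26) and eC ring 3 (1.26) and highest in C ring 3 (3.34), and in eC ring 2 it was 1.98, close to the 1.99 of C ring 4 and of eT ring 3. In eC ring 2 the log2 value of 0 reads lay 1.09 lower at B than at A, so that a transcript with no read at both falls there by that much. In eT ring 3 this value changed by -1.23, and there the median rise was 1.58 with 91 members higher at B. The part of this floor in the rises was not tested. By summed reads the eC plots, with 2.21, 1.98, 1.26 and 1.51, overlapped the plots of every other treatment. In C ring 2 at A, 242 of the members' 587 reads were those of c65363_g1. The median over all transcripts stayed between -0.03 and 0.07 in each plot. In eC ring 2 only 67 members were higher at B, against 85 to 99 in the other plots.

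**Figure D3:**
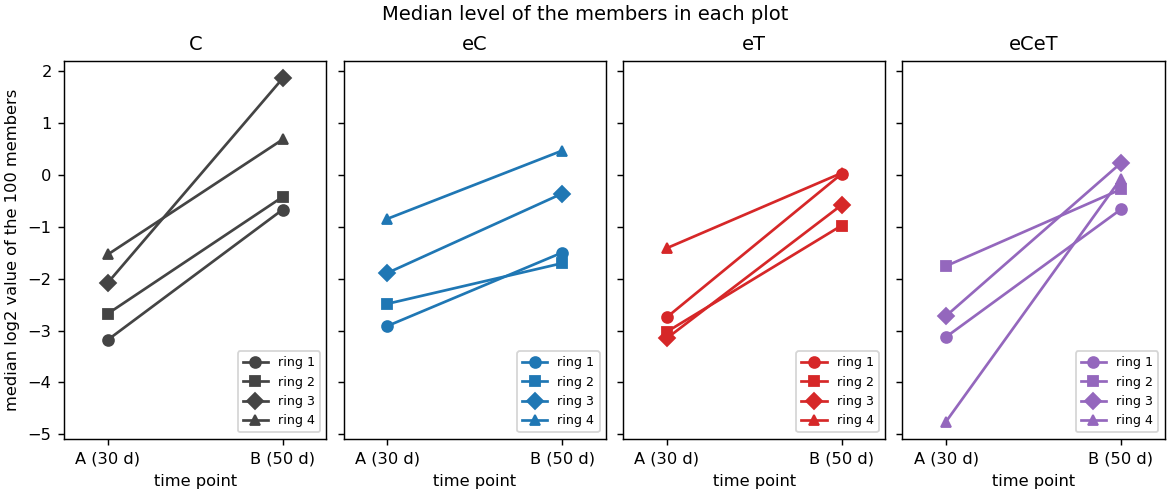
Median log2 value of the 100 members in each plot at time point A (30 days) and B (50 days), 1 panel per treatment and 1 line per plot. Every line rises. C ring 3 ends highest at 1.86, eCeT ring 4 starts lowest at -4.76, and eC ring 2 rises least.

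Members' reads made up 17.2 to 103 of every 1000000 reads of a library at A (median 33.3) and 70.0 to 401 at B (median 135). The highest value at A was in eC ring 4 and at B in C ring 3. Of the 100 members 66 had their highest read number at B in C ring 3, and 58 had theirs at A in a library of ring 4. Without the C ring 3 plot the median rise of the members was 2.05.

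Levels of the members moved together over libraries. At B the first principal axis of the 100 members held 58.8% of their variance over the 16 libraries, while that of all candidates held 16%. The correlation of a member with the mean of the other 99 over these libraries had a median of 0.78, and it was above 0.7 for 62 members and below 0 for 10. At A the median was 0.56. Over the 32 libraries the most alike pair of members was c96309_g4 and c64821_g2 (r = 0.98), of different components. Closest to the others at B was c80851_g7 (r = 0.96), and farthest was c74658_g7 (r = -0.53). The 5 transcripts called for warming at A include c85221_g1 (r = -0.10), c87803_g1 (r = -0.09) and c32489_g1 (r = -0.09), which did not follow the others at B. These correlations are descriptions over libraries whose depth and scaling all members share.

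The composition of the libraries moved with the members and with the other low transcripts. The transcript with the most reads, c78052_g1, took between 1.66% and 27.6% of a library at A and between 2.77% and 37.5% at B. The mean level of the members had a correlation with this share of 0.81 at A and 0.71 at B (Spearman 0.89 and 0.68, n = 16 each). With the log2 ratio of effective library size to recovered reads, the scaling step, it had -0.56 and -0.57. Without that scaling the correlation with the share was 0.65 at A and 0.43 at B. The mean level of the other candidates had correlations with the share of 0.68 at A and 0.52 at B, and with the members' mean of 0.81 and 0.83. C ring 3 at B had a ratio of effective size to recovered reads of 0.699 and 35.2% of its reads on c78052_g1, and eC ring 2 at B had 1.42 and 2.77%. The part of composition in the members' level was not tested. Without the scaling the rise had a median of 2.20. Leaving it out moves the mean rise of every transcript by the same amount, so this value says nothing about composition. The 5 leaf transcripts had correlations with the mean level of the members between 0.16 and 0.43 at A and between -0.25 and 0.15 at B.

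**Figure D4:**
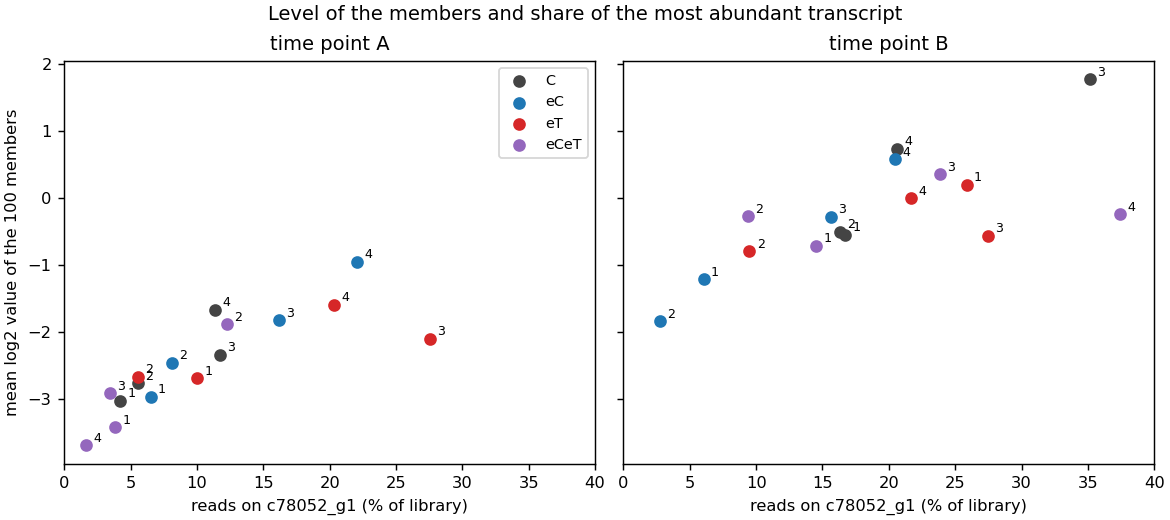
Mean log2 value of the 100 members in each library against the percentage of its reads on c78052_g1, with 1 panel per time point, colour for treatment and the ring number beside each point. Libraries with a larger share had higher member levels, with r = 0.81 at A and r = 0.71 at B, and eT ring 3 at A and eCeT ring 4 at B lie below the others of like share.

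Treatment differences within a time point were not ranked by the rule and were tested with limma over all 39208 transcripts (Benjamini-Hochberg, adjusted p under 0.1). The rule did average the same values over all plots, among them C ring 3 at B, the highest library at B for 66 members. A transcript high in that control library was thus favoured. So was a transcript low in some treatments at A, since this lowers its mean there and adds to its rise. The low level required at A leaves little room for calls there. At B no member was called in any of 5 contrasts. The share of all transcripts called was 0% for eC against C, 0.0179% for eT against C, 0.309% for eCeT against C, 0.0459% for the main effect of warming and 0.0051% for that of CO2. At an unadjusted p under 0.05 there were 17, 5, 4, 2 and 4 members, against 6.51%, 7.26%, 10.3%, 7.46% and 6.04% of all transcripts. Voom on the recovered reads called 0 members in each.

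In the eC plots 90 of the 100 members were lower than in C at B, with a median log2 difference of -1.18 against -0.03 for all transcripts. In eT 88 were lower (median -0.72), and in eCeT 85 (median -0.64). None of these differences passed the test for a single member. The lowest adjusted p was 0.677 for eC, with c69328_g2 at -2.85 ± 0.84 (SE), and the half-width of the 95% interval of a member had a median of 1.75. The 3 contrasts share the C plots, among them ring 3, in which the members were high. Since the members rise and fall together over libraries, counts of 90 or 85 are not counts of independent transcripts.

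Closest to a call at B was c64633_g1, with 102, 125, 49 and 74 reads in C, 124, 166, 49 and 12 in eC, 38, 22, 7 and 19 in eT, and 7, 9, 131 and 12 in eCeT. Of the warmed plots 7 had 38 reads or fewer and eCeT ring 3 had 131, while eC ring 4 was low among the unwarmed, so the groups overlap. Its warming effect at B was -1.81 ± 0.51 (SE, adjusted p = 0.263 by limma). Without eCeT ring 3, 1 member was called for warming at B and 1 for eCeT against C. Without eC ring 4, 1 was called for warming.

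At A 5 members were called for the main effect of warming, 5 of 100 against 3.77% of all transcripts, a share near the background. Of these 4 were lower in the warmed plots and 1 was higher. A low level in some plots at A was favoured by the rule, so this direction is no independent result. For eCeT against C 4 members were called against 1.4%, 3 lower and 1 higher, and all 4 are among the 5. No member was called for eT against C (0.0485% of all transcripts), eC against C (0%) or the main effect of CO2 (0%). At an unadjusted p under 0.05 these had 9, 7 and 6 members, against 10.3%, 7.9% and 7.56% of all transcripts, and voom called 0 in each. Without eT ring 2, 1 member was called for eT against C. The lowest adjusted p for CO2 was 0.347, for c71620_g1, with 2.19 ± 0.54 (SE).

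The strongest of the calls was again c64633_g1. At A it had 12, 23, 15 and 10 reads in C, 60, 10, 21 and 12 in eC, 2, 4, 0 and 1 in eT, and 5, 0, 1 and 2 in eCeT. All 8 warmed plots lay below all 8 unwarmed plots. Its mean log2 value at A was 0.68 in the unwarmed plots, above the threshold of 0, and -2.53 in the warmed plots. It thus met the threshold only through the warmed plots, so its warming call is in part a result of the selection. The warming effect was -3.21 ± 0.51 (SE, adjusted p = 0.00218 by limma), and eCeT was below C by a log2 difference of -2.96 ± 0.72 (adjusted p = 0.0545). At B the warmed plots had 7 to 131 reads (median 15.5) and the unwarmed 12 to 166 (median 88).

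Lower in the warmed plots too was c85221_g1. Its reads at A were 7, 9, 15 and 25 in C, 4, 9, 5 and 11 in eC, 5, 8, 0 and 0 in eT, and 1, 4, 1 and 1 in eCeT. The groups overlap by a few reads. The warming effect was -2.24 ± 0.47 (SE, adjusted p = 0.0117) and the difference of eCeT from C -2.63 ± 0.66 (adjusted p = 0.0650). At B the warmed plots had a median of 17 reads and the unwarmed 28.5.

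The other 2 that were lower rested on fewer reads. For c79624_g2 the unwarmed plots had 0 to 21 reads (median 5) and the warmed 0 to 3 (median 1), with a warming effect of -1.76 ± 0.47 (adjusted p = 0.0494). For c32489_g1 they had 0 to 20 (median 9) and 0 to 10 (median 1.5), with an effect of -1.86 ± 0.55 (adjusted p = 0.0758) and a difference of eCeT from C of -2.79 ± 0.78 (adjusted p = 0.0970). The groups overlap for both.

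Higher in the warmed plots at A was c87803_g1, which the study lists. It had 0, 0, 1 and 2 reads in C, 0 in every eC plot, 1, 2, 1 and 1 in eT, and 6, 2, 9 and 7 in eCeT. Of the eCeT plots 3 were above all other plots, and the rest overlap. The warming effect was 2.27 ± 0.42 (SE, adjusted p = 0.00571) and the difference of eCeT from C 2.65 ± 0.59 (adjusted p = 0.0378). At B the unwarmed plots had 4 to 10 reads and the warmed 3 to 15, with an effect of 0.28 ± 0.42 (adjusted p = 0.952). With so few reads the fitted values depend on the reads added before the log.

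**Figure D5:**
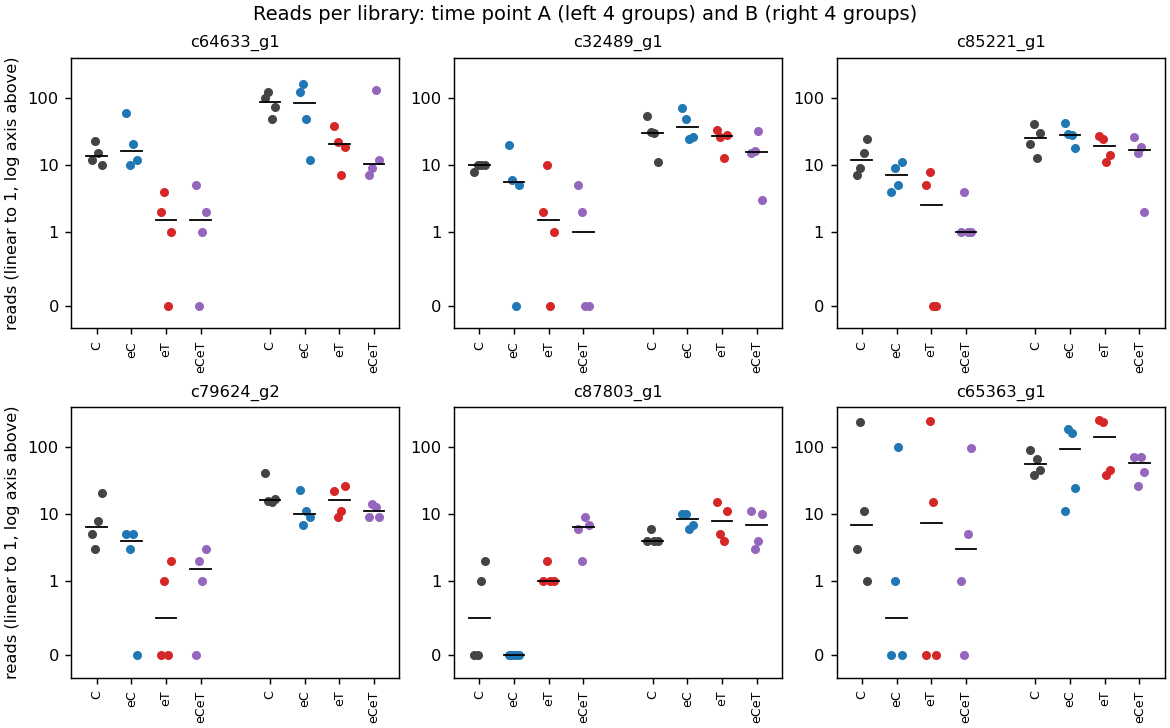
Reads per library of the 5 members called for warming at time point A and of c65363_g1, with 4 groups at A on the left and 4 at B on the right of each panel, points for plots and a bar for the median of a group. The axis is linear to 1 read and logarithmic above. In c64633_g1 all warmed plots at A lie below all unwarmed ones, c87803_g1 is the reverse with overlap, and c65363_g1 has 4 libraries with many reads at A, 1 in each treatment.

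These calls leaned on single plots. For eCeT against C at A, the number of members called was 0 without C ring 2, 2 without C ring 3, 1 without C ring 4, 2 without eCeT ring 2, 1 without eCeT ring 3 and 2 without eCeT ring 4. For warming at A it was 3 without C ring 4 and otherwise 4 to 6. With 5 reads added in place of 0.5 it was 2, and voom called 3. The call of c64633_g1 for warming remained in 29 of 30 alternatives and that of c85221_g1 in 29 of 30, the exception being the FPKM table for both. That of c32489_g1 remained in 12 of 30.

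Whether the treatments changed the rise itself was tested as a difference of differences. No member and no transcript (0%) was called for the effect of warming on the change over time, for that of CO2 (0%) or for eCeT against C in the change (0%). At an unadjusted p under 0.05 there were 3, 6 and 3 of the 100 members, against 5.89%, 4.55% and 5.95% of all transcripts (2310, 1784 and 2333). Voom called 0 members. The median effect of CO2 on the rise of the members was -0.32, with a half-width of the 95% interval of 1.75 for a typical member. For c87803_g1 the warming effect on its change was -1.996 ± 0.59 (adjusted p = 0.806) and for c64633_g1 1.39 ± 0.72 (adjusted p = 0.851). So the calls at A and their lack at B are not shown to differ.

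Lists of named leaf genes were set beside the members, from lists chosen with earlier results known. The heat shock and defence transcripts come from those the study found changed in eCeT against C at A. The flowering locus T homologs come from those it found changed at B. Calls of these lists in the same or overlapping contrasts were made on the same samples. They repeat that choice and are no new support. Neither of the 2 homologs of flowering locus T, the mobile signal that starts flowering, is a member: c64038_g2 changed by 0.20 and c77009_g3 by -0.21 on average. Of the 8 transcripts on the heat shock list 0 were members and all 8 had a lower mean at B, with a median change of -1.59. Of 8 defence transcripts 0 were members and all 8 had a lower mean at B, with a median of -1.42. The time change of these lists was not tested. For warming at A, 2 of the 2 homologs and 4 of the 8 heat shock transcripts were called higher and 6 of the 8 defence transcripts lower (limma, adjusted p under 0.1). For eCeT against C at A 7 of the 8 heat shock transcripts were called higher and 5 of the 8 defence transcripts lower. At B both homologs were called higher for warming and for eCeT against C, with c64038_g2 at 3.47 ± 0.65 (SE, adjusted p = 0.0215) in the latter. There 2 of the 8 heat shock transcripts were also called higher, c75211_g1 with 3.53 ± 0.66 (SE, adjusted p = 0.0215) and c78721_g1 with 3.19 ± 0.74 (SE, adjusted p = 0.0808).

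Transcripts that fell the most gave the mirror image for comparison. By the same rule with the time points exchanged, 100 transcripts fell by a median of 2.76 on the log2 scale, 7 of them had all 16 libraries of B below all 16 of A, and 30 fell in all 16 plots. The members had 0 and 18. The SD of the change over plots had a median of 1.65 in the members and 1.83 in the falling set. Their levels at B had a correlation with the scaling ratio below -0.5 in 46 members and in 7.58% of all candidates. In the 100 transcripts with the largest rise among those at or above 0 at A the number was 41, so it was not a trait of the members alone. In the falling set it was 3, where 36.8% of the values at B were 0 reads against 1.94% in the members, so that set is not comparable there. All these sets were chosen on their change, and no difference between them was tested.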

How the data were processed

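RNA was sequenced from 32 libraries, 8 groups of 4 plots. The authors assembled the transcripts without a genome and deposited log2 values made with TMM scaling and limma's voom (reads plus 0.5 per effective library size in units of 1000000), and FPKM. Base calls were made with CASAVA and bcl2fastq 1.8.4 per the submitters' processing notes; the aligner is not given in the sources used here. Of the FPKM columns 29 were used, and 3 of C were not, because their header lines disagree. Whole reads were recovered from the log2 values: 100% of values under 1000 reads, which are 96.2% of all, came within 0.02 of a whole number.

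The members and lists were chosen with earlier results of these data known. All tests used limma 3.58.1 in R 4.3.3 with 1 model of the 8 groups over 32 libraries, moderation with a trend, two-sided, and adjustment over 39208 transcripts. Ratios of summed levels divide summed reads by summed effective sizes. The method was tested on simulated data. The rest was done in Python 3.11.15 with scipy 1.17.1, pandas 2.3.3 and numpy 2.4.6, and plots were drawn with matplotlib 3.10.9. Transcripts were named by rule: the 12 largest rises, the 6 highest median FPKM at B, members listed by the study, called members, the 3 largest and 3 smallest SD of the rise, the 5 on each side of the threshold, and members that share a component. P-values measure the spread between plots. The labels tie the 2 time points of a plot by its number, and each rise pairs them. Members with the fewest reads, the most alike pairs, the farthest from the others, component partners and c78052_g1 were named after their values were seen. Alternatives were other scalings, 5 reads added, the FPKM table (pseudocounts 1 and 0.1), other thresholds, fits and weights, blocks and single plots left out. Voom, 5 reads added and no scaling in the tests, the ratio of summed reads, and the omission of eT ring 3 and eCeT ring 4 were chosen after the data were seen.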

Additional observations from a re-analysis of the deposited data

Results flagged for a closer look

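Groups of 4 plots were screened for a plot far from the other 3, by the share of the group's range that its gap to the nearest takes up (Dixon's ratio). Of 84 groups, 20 for summaries of the members and 64 for 8 single members, 5 were marked, and chance marks about 1 in 20. The median rise of the members in C ring 3 was 4.27, where the other C plots had 2.22, 2.25 and 2.51. The rule averaged these rises to choose the members, so this is a description. Members' reads at A in eCeT ring 2 came to 51.0 in 1000000, where the others had 17.7, 18.9 and 21.4. At B the log2 value of c65363_g1 in eCeT ring 2 was 1.06, below 2.46, 2.63 and 2.67. For c79624_g2 it was -4.02, or 0 reads, in eC ring 4 at A, below -1.26, -1.04 and -0.75, and -0.32 in eCeT ring 1 at B, below 0.19, 0.23 and 0.27.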

How the results depend on the processing

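The choice of members depended on how few reads were weighted. With 5 reads added in place of 0.5 the rule kept 42 of the 100 members, with the median over plots 56, with the ratio of summed reads 39 and with log2(FPKM + 0.1) 15. With log2(FPKM + 1) no value lies below 0, so the rule could not be applied. The median rise was 0.90 with 5 reads added and 0.55 with log2(FPKM + 1), and it was between 2.05 and 2.27 with 1 plot left out. The rise in a ring left out averaged 1.68, and 0.82 with 5 reads added. Centring on the median and no scaling kept all 100 members, and quantile normalization 85. Centring moved every rise by -0.08. No scaling also moves every mean rise by a common amount, so neither changes the order of the rises.

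For eCeT against C at A the members called numbered 1 with no variance trend, 2 with quantile normalization, 0 with the FPKM table, 1 at an adjusted p under 0.05, 1 with only the 16 libraries of the time point, 1 with voom, 1 with 5 reads added and 2 with no scaling, and between 0 and 5 with 1 plot left out. For warming at A they numbered 0 with the FPKM table, 3 with only the 16 libraries, 3 with voom, 2 with 5 reads added, and between 3 and 6 with 1 plot left out. For warming at B array weights gave 1, and plots left out 0 to 1, as for eCeT against C at B and eT against C at A. For eT against C at A no scaling gave 3. The cause of these changes was not tested. Over all transcripts the alternatives without omissions called 45 to 1050 for eCeT against C at A and 399 to 1896 for warming at A, where the fit reported gave 549 and 1477.

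Same-numbered plots of a time point had correlations of their deviations between -0.12 and 0.22, so the ring number was not taken to pair treatments. The members' median level at B, averaged over plots, was -0.70 (SD 0.62), -0.84 (0.65), 0.29 (1.10) and 0.28 (0.36) in rings 1 to 4. This difference between ring numbers was not tested. The 2 time points of a plot are paired by its label, and their correlations lay between -0.02 and 0.16. With the ring as a replicate block 4 members were called for eCeT against C at A and 6 for warming at A. With the plot as a block 4 and 5 were called, and neither block called a member elsewhere. Over all transcripts the ring block called 218 in place of 121 for eCeT against C at B, 43 in place of 18 for warming at B and 163 in place of 19 for eT against C at A. Of the 100 members 62 had at most 50 reads at A, so single reads set their values there.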

Other observations

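The FPKM table holds 5956 transcripts that the log2 table does not, and 17 of them belong to components of members. The transcript c64874_g2, of the same component as the member c64874_g1, was listed at 0 in 14 of the 15 columns used at A, with 0.553 FPKM in eCeT ring 2, and above 0 in 13 of the 14 used at B, with a median of 0.759 and a highest value of 1.74. It was the nearest to a switch of the 5956, in that no other with at most 1 value above 0 at A had as many columns above 0 at B. It was listed at 0 at B in eCeT ring 1. Its partner c64874_g1 went from 5 to 83 summed reads. The reverse was seen in c70296_g1, of the component of c70296_g2, which was listed at 0 in 13 of the 15 columns at A, had a highest value of 37.0 FPKM there and was listed at 0 in all 14 columns used at B.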
